A study of Bos taurus with 30 samples.

Results

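Collagen chains are the protein strands that wind in groups of 3 into the collagens, the main structural proteins of the dermis. They were taken as the probe sets (sets of short probes that read 1 transcript) whose single annotated symbol has the form COL, number, A, number, leaving out COL17A1, a chain of the basal keratinocyte junction. Each gene was represented by its probe set with the highest mean over the 30 arrays. This gave 22 genes, read by 46 probe sets, of 9155 genes with a single symbol. The RefSeq table holds 43 collagen genes under the same rule, and those with no probe set of their own symbol, COL5A1, COL6A3 and COL7A1 among them, were not analysed here. Of the 22 genes, 16 passed the filter on low signal, which asks for a value at or above the array median in at least 3 arrays.

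Skin was taken by biopsy from F2 cattle of a cross between Gyr (Bos indicus) and Holstein (Bos taurus), an ancestry that all groups share. The biopsies after infestation were from tick feeding sites, and the others were taken before it. The skin was measured on an Affymetrix bovine expression array. The resistant group held 5 arrays before infestation (0 h), 6 at 24 h and 5 at 48 h after it, from 6 animals. The susceptible group held 3, 6 and 5 arrays at the same times, from 7 animals. The labels number the animals, so the arrays of a group come from separate animals, and most animals recur at several times. Age and sex are not given in the labels.

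Fibril-forming collagens are secreted as procollagens, trimmed at both ends outside the cell and packed side by side into fibrils, which lysyl oxidases then cross-link. Type I collagen, made of COL1A1 and COL1A2 chains, and type III collagen, made of COL3A1, are the bulk of the dermal fibres, and type V sits within the same fibrils and limits their width. Type VI forms beaded filaments around cells, type IV forms the sheet of the basement membrane, and fibril-associated chains such as COL12A1 decorate the fibril surface. In skin the dermal fibroblast is the main source of types I, III, V and VI, while endothelial cells contribute much of the type IV.

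The arrays were close in scale: their medians ran from 7.17 to 7.40 (log2) and their highest values from 14.98 to 15.76. Precision is limited by how many arrays each group has. All 7 fibroblast markers, 5 of 6 basal keratinocyte markers and 5 of 6 endothelial markers passed the filter, and 0 of 3 annotated cartilage markers did. A check of animal numbers used 100 probe sets that differ between animals at the later times. By it, the 0 h arrays labelled resistant 01 and 02 and susceptible 09, 10 and 11 were closest to later arrays of their own number. The arrays labelled resistant 03, 04 and 05 at 0 h were closest to later arrays of animals 04 (r = 0.94), 05 (r = 0.89) and 06 (r = 0.93). All of these are resistant animals, so the groups do not change, and the numbers bear only on values matched by animal.

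Of the 16 chains that passed, 7 are fibril-forming (COL1A1, COL1A2, COL3A1, COL5A2, COL5A3, COL11A1 and COL27A1) and 2 are fibril-associated (COL12A1 and COL21A1). COL6A1 and COL6A2 belong to type VI, COL4A1 to type IV, and COL15A1 and COL18A1 are multiplexins, which lie at basement membranes and carry long sugar chains. COL13A1 spans the cell membrane, and COL26A1 was kept apart as a chain of no larger class. The 6 that did not pass were COL2A1, COL9A1, COL10A1 and COL11A2, known as cartilage chains, and COL4A3 and COL4A4, known from basement membranes of the kidney and other organs. None of these 6 reached the array median in any of the 30 arrays. The members just inside the filter were COL6A2, at or above the median in 3 arrays, COL13A1 in 10 and COL5A3 in 11.

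**Figure D1:**
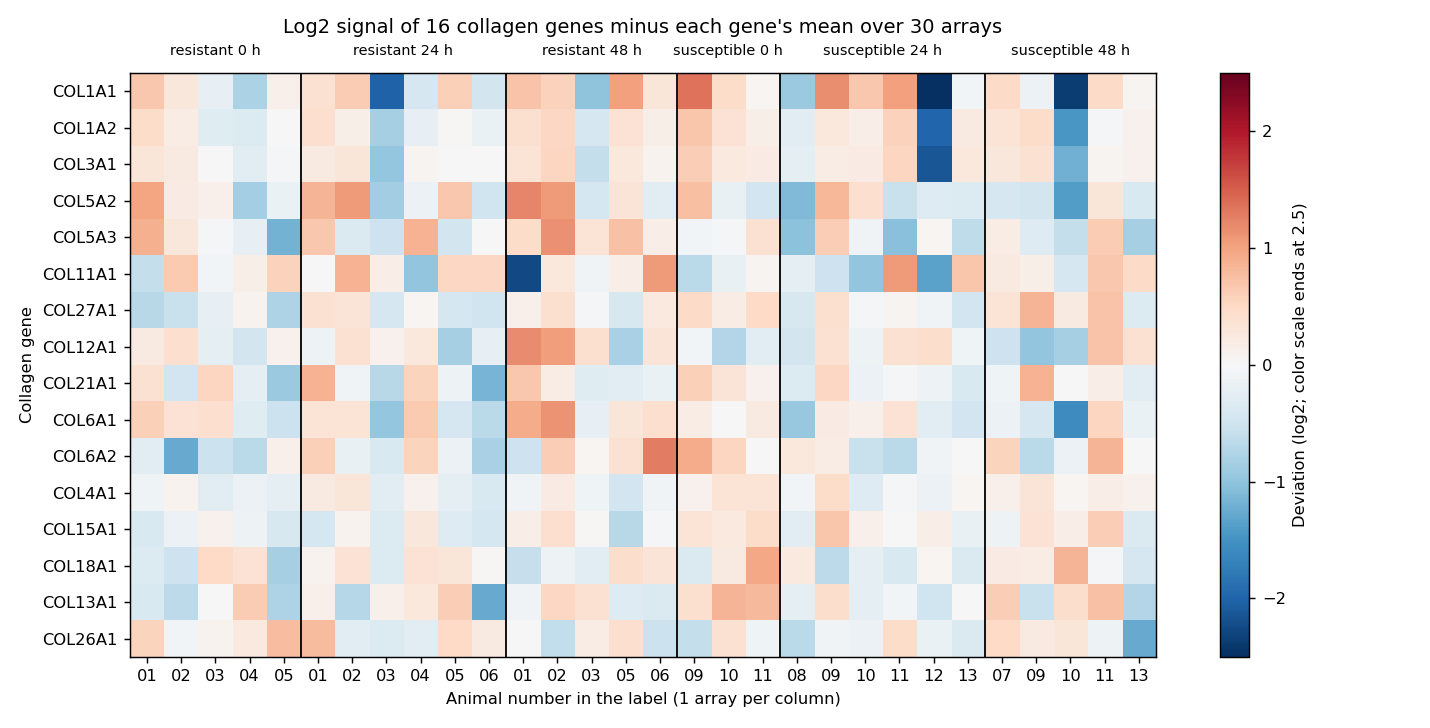
Log2 signal of the 16 collagen genes that passed the filter (rows) in the 30 arrays (columns, by phenotype, time and animal number), each as its deviation from the gene's mean over all arrays. COL1A1, COL1A2 and COL3A1 are low together in resistant animal 03 at 24 h and 48 h, susceptible animal 12 at 24 h and susceptible animal 10 at 48 h.

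The type I and type III chains varied together between animals, and the same few biopsies were low in all 3. COL1A1 ranged over 4.03 log2 units, from 9.86 to 13.90. COL1A2 ranged over 2.67 units, from 12.62 to 15.30, and COL3A1 over 2.74, from 12.78 to 15.52. The last 2 lie near the top of the arrays' scale, where differences can be compressed. Within groups COL1A1 had an SD of 1.04, against a range of 0.92 between the 6 group means, so animals of a group differed by as much as the groups did. COL4A1 was the steadiest member, with a within-group SD of 0.22.

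In resistant skin COL1A1 read 13.22, 12.83, 12.33, 11.76 and 12.68 at 0 h. At 24 h its lowest, median and highest values were 10.53, 12.52 and 13.18, and at 48 h it read 13.26, 13.13, 11.54, 13.56 and 12.84. The lowest array at both later times was animal 03. In susceptible skin COL1A1 read 13.90, 13.01 and 12.59 at 0 h. At 24 h its lowest, median and highest values were 9.86, 12.85 and 13.70, and at 48 h it read 13.02, 12.39, 10.18, 13.03 and 12.62. Here the low arrays were animal 12 at 24 h and animal 10 at 48 h, and the ranges of the 2 phenotypes overlapped at every time.

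COL1A2 followed the same animals. At 48 h it read 15.01, 15.12, 14.18, 14.96 and 14.76 in resistant skin and 14.95, 15.07, 13.16, 14.55 and 14.71 in susceptible skin. At 24 h the lowest, median and highest values were 13.77, 14.54 and 15.02 in resistant skin and 12.62, 14.81 and 15.19 in susceptible skin. COL3A1 did the same, with 48 h values of 15.25, 15.44, 14.31, 15.17 and 15 against 15.20, 15.30, 13.70, 14.98 and 15.01. Resistant animal 03 and susceptible animal 10 were again the lowest of their groups, and the groups overlapped.

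Over the 30 arrays, the mean deviation of the 3 chains from their group means fell below -0.8 in 4 arrays, a bound set after the values were seen. These were susceptible animal 12 at 24 h (-2.10), susceptible animal 10 at 48 h (-1.51), and resistant animal 03 at 24 h (-1.15) and at 48 h (-0.89). The lowest of the other arrays stood at -0.48. COL1A1 in susceptible animal 12 was 10.2-fold below the median of the other 5 arrays of its group, and in susceptible animal 10 it was 6.22-fold below that of the other 4. In animal 03 COL1A1 was 5.26-fold below at 24 h and 3.14-fold below at 48 h. The lower readings were also seen in second probe sets. Those of COL1A2 and COL3A1 were below all other arrays of the group in each of the 4 arrays, and that of COL1A1 in 3 of the 4, all but resistant animal 03 at 24 h. There it read 4.05, and another array of the group read 3.42. This COL1A1 probe set had a mean of 6.8, below the lowest array median of 7.17, so its readings are limited by low signal.

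The 4 arrays differed in which other collagens were low. In resistant animal 03, COL5A2 and COL6A1 were also the lowest of the group at both times, and 8 of the 16 members were lowest at 24 h and 6 at 48 h. In susceptible animal 10 at 48 h, 7 members were lowest, COL5A2 (8.99), COL6A1 (12.02) and COL4A1 among them. In susceptible animal 12, 5 members were lowest: the 3 type I and III chains, COL11A1 and COL13A1. Its COL5A2 read 10.06, against a median of 10.03 in the other 5 arrays, and its COL6A1 read 13.30, within their range of 12.64 to 13.95. All these counts include the type I and III chains by which the 4 arrays were picked. At 24 h, resistant animal 06 and susceptible animal 08 were each lowest of their group for 5 members. At 48 h, resistant animal 05 was lowest for 4 and susceptible animal 13 for 7. The share of all probe sets lowest in each array was not counted.

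Fibroblast markers did not set the 4 arrays apart in one way. In bulk skin, fewer cells of a type and less RNA per cell cannot be told apart. The mean of the 7 fibroblast markers was 10.37 in susceptible animal 10 at 48 h, the lowest of the 30 arrays, and 6 of the 7 markers were the lowest of all arrays there (PDGFRA, PDGFRB, DCN, LUM, FBLN1 and FAP), while THY1, at 9.40, was the highest. In that array the macrophage markers were also lowest (7.20) and both keratinocyte lists were highest (12.52 and 13.25). In susceptible animal 12 at 24 h the fibroblast mean was 11.56, rank 29 of 30 from the lowest, with LUM at 13.49, DCN at 14.86 and FBLN1 at 13.47. In resistant animal 03 it was 11.05 at 24 h and 11.25 at 48 h, where the group means were 11.12 and 11.40. The part of these markers in the collagen values was not tested.

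**Figure D2:**
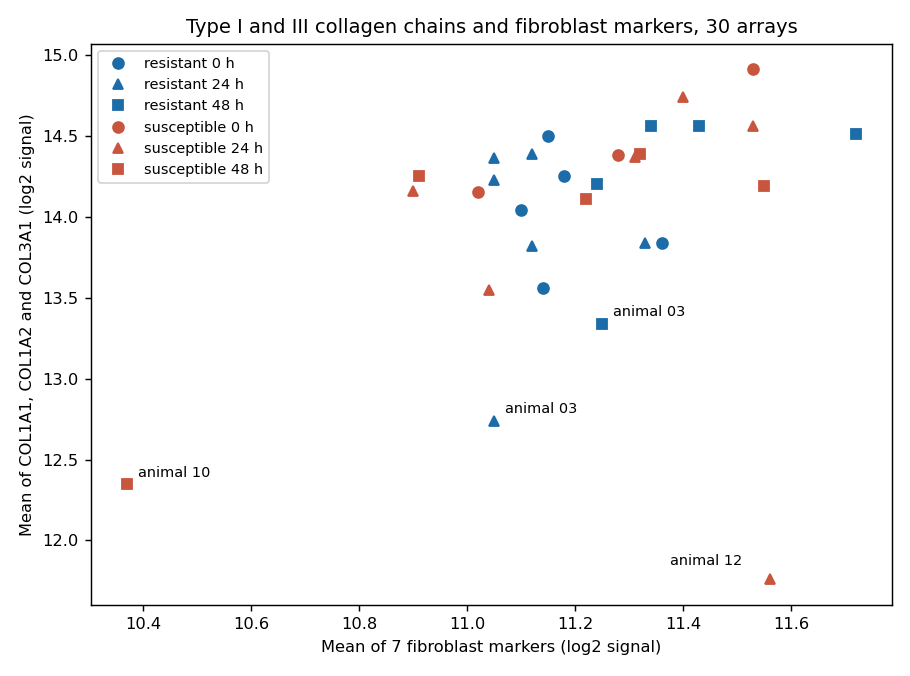
Mean log2 signal of COL1A1, COL1A2 and COL3A1 (vertical axis) against the mean of 7 fibroblast markers (horizontal axis), 1 point per array, with color for phenotype and shape for time. Susceptible animal 10 is low on both axes, at 10.37 and 12.35, and susceptible animal 12 combines the lowest collagen mean, 11.76, with a fibroblast mean of 11.56.

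Genes whose products bind or finish the fibril were set beside the type I and III chains as a description over 30 arrays, in which animals recur. With group means removed on both sides, the mean of the 3 chains had a Pearson correlation of 0.61 with 15 fibril-binding proteoglycans and glycoproteins. It was 0.61 with 5 genes of propeptide cleavage and cross-linking, 0.59 with 17 genes of collagen making and folding, and 0.31 with the fibroblast markers, which share DCN and LUM with the fibril-binding list. It was 0.45 with 3 adipocyte markers, 0.29 with macrophage markers, and -0.11 and -0.14 with basal and differentiated keratinocyte markers. With endothelial, smooth muscle, Schwann cell and melanocyte markers it was -0.11, -0.06, -0.03 and -0.07. The difference between 3' and 5' probe sets of actin, a sign of RNA integrity, gave -0.24, and that of glyceraldehyde phosphate dehydrogenase gave 0.22. In susceptible animals 12 at 24 h and 10 at 48 h the actin difference was 4.59 and 1.67, ranks 27 and 5 of 30 from the lowest. In resistant animal 03 at 24 h and 48 h it was 3.95 and 4.75, ranks 22 and 28. The other difference had ranks 26, 11, 4 and 12 in the same arrays. The part of RNA integrity in the collagen values was not tested. In susceptible animal 12, 7 of the 15 fibril-binding genes were below all other arrays of the group. They were FMOD, ASPN, OGN, KERA, SPARC, DPT and POSTN, named after their values were seen, and 0 of the 7 fibroblast markers were. In resistant animal 03, 4 of the 15 fibril-binding genes were lowest at 24 h and 8 at 48 h, with 1 and 3 of the 7 fibroblast markers. In susceptible animal 10 at 48 h, 10 of the 15 and 6 of the 7 were lowest. How many of all probe sets were lowest in these arrays was not counted, so an excess cannot be read from these counts.

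Across the 16 chains, type I and III stood out as a block. Of 120 pairs of chains, correlated over 30 arrays after removing group means, 6 had a Pearson correlation of at least 0.7, 21 of at least 0.5 and 26 were below 0, with a median of 0.17. COL1A2 and COL3A1 gave 0.98, COL1A1 and COL1A2 0.92, and COL1A1 and COL3A1 0.91. The next were COL15A1 with COL27A1 (0.75), COL5A2 with COL6A1 (0.73) and COL1A1 with COL5A2 (0.71). COL5A2 and COL3A1 are neighbouring genes in the RefSeq table, as are COL6A1 and COL6A2.

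**Figure D3:**
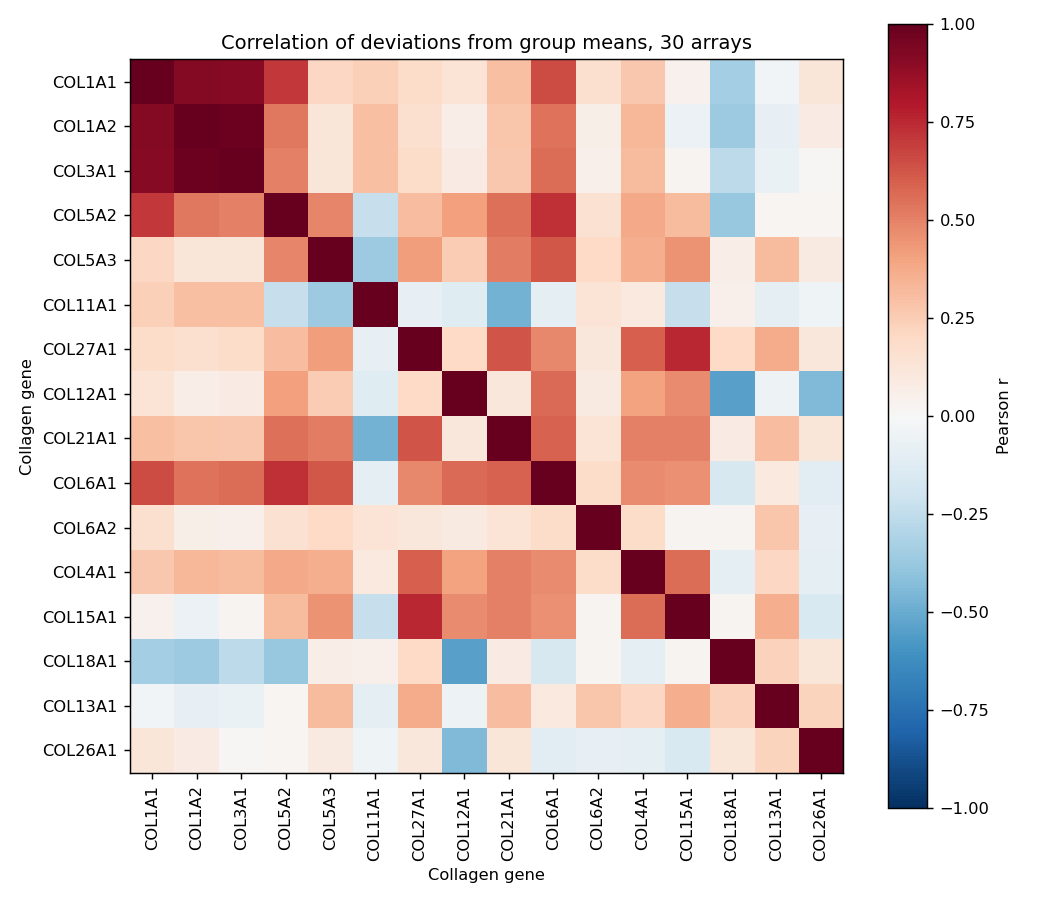
Pearson correlation between collagen genes over 30 arrays, each value taken as the deviation from its group mean, from -1 (blue) to 1 (red). COL1A1, COL1A2 and COL3A1 form a block at 0.91 to 0.98, while the median over all 120 pairs is 0.17.

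Chains that are assembled into 1 molecule were compared across the 13 animals, each as the mean of its arrays' deviations from the group means. Animals were taken by label. The resistant 0 h arrays labelled 03, 04 and 05 were closest to other numbers, so resistant values here may mix animals. Of 8 pairs listed, 3 had both chains above the filter, and p-values were adjusted over these 3. COL1A1 and COL1A2, the partners of type I collagen, gave r = 0.96 (permutation p = 3e-05, adjusted p = 9e-05) and rho = 0.93 (permutation p = 5e-05, adjusted p = 0.00015, n = 13 animals). Without animals 03 and 12, the farthest from the median, r was 0.88 (permutation p = 0.00062, n = 11). Within the resistant animals r was 0.96 (exact permutation p = 0.00417, n = 6) and within the susceptible animals 0.97 (exact permutation p = 0.00317, n = 7). The relation of the type I partners thus held in both phenotypes and without the lowest animals.

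COL3A1 and COL5A2, which share fibrils, gave r = 0.32 (permutation p = 0.317, adjusted p = 0.471) and rho = 0.71 (permutation p = 0.00871, adjusted p = 0.0131, n = 13 animals). Without animals 03 and 12, r was 0.65 (permutation p = 0.0324, n = 11), and it was 0.65 (permutation p = 0.0223) without animal 12 alone, so Pearson's value rests on that animal. It was 0.75 in resistant animals (exact permutation p = 0.0722, n = 6) and 0.21 in susceptible animals (exact permutation p = 0.405, n = 7). COL6A1 and COL6A2, partners in type VI collagen, gave r = -0.22 (permutation p = 0.471, adjusted p = 0.471) and rho = -0.09 (permutation p = 0.767, adjusted p = 0.767). Without animals 08 and 11 r was 0.17 (permutation p = 0.618, n = 11). The COL6A2 probe set was above the array median in few arrays, which leaves this pair with little signal to compare.

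No collagen chain passed the adjusted threshold of 0.05 in any of the 11 comparisons of phenotype and time (limma, adjusted over 13809 probe sets). Before infestation, resistant skin read lower for 12 of the 16 chains, with a median difference of -0.40 log2 units against -0.01 over all probe sets. At an unadjusted p under 0.05, 5 chains were lower and 0 higher, where 4.51% of all probe sets passed in either direction and 0 of 13809 passed after adjustment. For 3 chains (COL27A1, COL4A1 and COL15A1) all resistant arrays lay below all susceptible arrays, where 3.16% of probe sets did. The susceptible group at 0 h has 3 arrays, and these enter 5 of the 11 comparisons.

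COL27A1, a fibril-forming chain known mainly from cartilage, gave the smallest p at 0 h. Its values were 8.59, 8.74, 9.08, 9.38 and 8.52 in resistant skin and 9.76, 9.48 and 9.78 in susceptible skin. Every resistant array lay below every susceptible one. The difference was -0.81 ± 0.26 (SE) log2 units, with an adjusted p of 1.0 (limma).

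COL4A1, a chain of the basement membrane network around vessels and under the epidermis, read 11.57, 11.76, 11.42, 11.54 and 11.45 in resistant skin and 11.78, 12.03 and 12.02 in susceptible skin at 0 h. The groups were separate by a narrow margin, and the difference was -0.40 ± 0.16 (SE). COL15A1, a multiplexin of vessel and muscle basement membranes, read 11, 11.24, 11.49, 11.25 and 10.98 against 11.73, 11.63 and 11.84, a difference of -0.54 ± 0.23 (SE). Both had an adjusted p of 1.0 (limma). Second probe sets gave -0.28 for COL4A1 and -0.05 for COL15A1. The mean of 5 endothelial markers was 9.02 to 9.68 in the same resistant arrays and 9.75 to 10.10 in the susceptible ones, and its part in these differences was not tested.

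COL6A2 and COL13A1 were the other 2 of the 5. COL6A2 read 6.22, 5.26, 5.98, 5.84 and 6.64 in resistant skin and 7.44, 7.04 and 6.50 in susceptible skin, a difference of -1.0 ± 0.40 (SE). COL13A1 read 6.58, 6.31, 6.96, 7.61 and 6.19 against 7.36, 7.81 and 7.78, a difference of -0.92 ± 0.39 (SE). Both sit near or below the array medians, their groups overlapped, and the adjusted p was 1.0 (limma). The fibrillar chains of the dermis differed less than their errors or about as much: COL1A1 by -0.60 ± 0.70 (SE), COL1A2 by -0.40 ± 0.41, COL3A1 by -0.31 ± 0.41 and COL5A2 by 0.03 ± 0.48.

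At 24 h the chains were split evenly between the phenotypes. Resistant skin read higher for 9 and lower for 7 of the 16 chains, with a median difference of 0.06, and 0 chains had an unadjusted p under 0.05, against 4.4% of all probe sets (limma, 0 called). The smallest p values belonged to COL15A1 (-0.29 ± 0.18 SE), COL18A1, the source of endostatin (0.36 ± 0.25), and COL5A3, a minor type V chain (0.39 ± 0.33). COL15A1 stood at -0.17 without susceptible animal 09, and COL5A3 at 0.22 without resistant animal 04. COL1A1 differed by -0.08 ± 0.56 (SE), with a 95% interval from -1.22 to 1.06, so a difference of 1 log2 unit either way lies inside it.

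At 48 h the chains were again split evenly between the phenotypes. In resistant skin 8 of the 16 chains were higher and 8 lower, with a median of 0.08 against -0.04 over all probe sets, of which 42.9% were higher. Of the 7 fibril-forming chains 5 were higher, with a median of 0.32, and of the 9 others 3 were higher, with a median of -0.08. The fibril-forming count depends on susceptible animal 10. With that array left out, COL1A2 (-0.02) and COL3A1 (-0.09) changed sign and COL1A1 was at 0.10. At an unadjusted p under 0.05, 3 chains were higher (COL6A1, COL12A1 and COL5A3) and 0 lower, where 10.1% of all probe sets passed in either direction. After adjustment 0.0145% of probe sets passed (2 of 13809), and 0 of the chains (limma).

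COL6A1, a core chain of the type VI filaments around cells, read 14.52, 14.72, 13.38, 13.89 and 14.01 in resistant skin at 48 h. In susceptible skin it read 13.44, 13.16, 12.02, 14.12 and 13.43. The highest susceptible value, of animal 11, lay above 3 of the 5 resistant ones. The difference was 0.87 ± 0.34 (SE), with an adjusted p of 0.392 (limma), and a second COL6A1 probe set gave 1.10. Without susceptible animal 10 the difference was 0.57.

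COL12A1, which bridges fibrils and is known from tissues under load, read 13.47, 13.34, 12.68, 11.48 and 12.61 in resistant skin against 11.77, 11.29, 11.45, 13 and 12.67. The groups overlapped, with resistant animal 05 low and susceptible animals 11 and 13 high. The difference was 0.68 ± 0.32 (SE), with an adjusted p of 0.486 (limma). A second probe set gave 1.07.

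Both measured type V chains read higher in resistant skin at 48 h. COL5A2 was at 11.60, 11.44, 9.95, 10.71 and 10.11 against 9.97, 9.93, 8.99, 10.68 and 10.01, a difference of 0.85 ± 0.41 (SE, adjusted p = 0.498, limma). COL5A3 was at 7.53, 8.22, 7.42, 7.81 and 7.24 against 7.26, 6.74, 6.48, 7.70 and 6.24, a difference of 0.76 ± 0.36 (SE, adjusted p = 0.489, limma). In COL5A2 resistant animals 01, 02 and, by a narrow margin, 05 lay above every susceptible array and animal 03 below all but 2 of them. The groups of COL5A3 overlapped too.

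The type I and III chains at 48 h depended on 1 susceptible array. COL1A1 differed by 0.62 ± 0.61 (SE), COL1A2 by 0.32 ± 0.36 and COL3A1 by 0.20 ± 0.35, with adjusted p of 0.767, 0.804 and 0.897 (limma). Without susceptible animal 10 the same differences were 0.10, -0.02 and -0.09, and without resistant animal 03 that of COL1A1 was 0.95. COL5A2, COL12A1 and COL5A3 stood at 0.61, 0.53 and 0.66 without susceptible animal 10. Without resistant animal 01, COL6A1 was at 0.77, COL12A1 at 0.49, COL5A2 at 0.63 and COL5A3 at 0.79.

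COL4A1 had a difference of -0.26 ± 0.14 (SE, adjusted p = 0.52, limma) at 48 h, and its second probe set gave 0.14. COL27A1 stood at -0.29 ± 0.22, COL18A1 at -0.20 ± 0.28 and COL15A1 at -0.15 ± 0.20, with 0.22 in the second COL15A1 probe set. COL11A1, a chain of fine fibrils, stood at -0.39 ± 0.46, with 0.07 in its second probe set. Its value in resistant animal 01, 6.81, was the lowest of all 30 arrays, and basal keratinocyte markers in that array averaged 9.35, the next array of the group being at 11.14. Macrophage markers at 48 h ran from 9.53 to 10.41 in resistant skin and from 7.20 to 9.41 in susceptible skin, and their part in the collagen values was not tested.

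**Figure D4:**
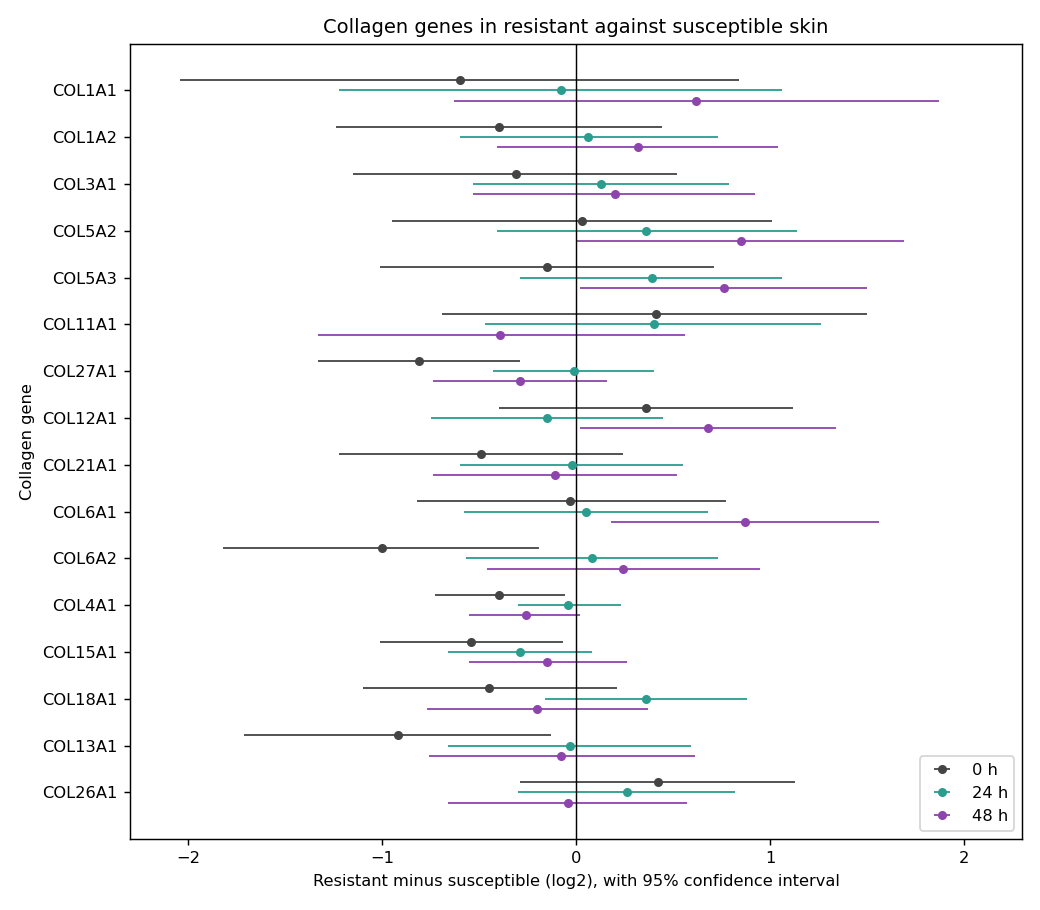
Difference in log2 signal between resistant and susceptible skin (horizontal axis) for 16 collagen genes at 0 h, 24 h and 48 h, with 95% confidence intervals from the limma fit. The point for COL27A1 at 0 h lies at -0.81 and that for COL6A1 at 48 h at 0.87, and 0 of the 16 genes passed the adjusted threshold at any time.

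In resistant skin, most collagen chains read higher at 48 h than before infestation. At 24 h against 0 h, 9 were higher and 7 lower, with a median of 0.04, and 0 had an unadjusted p under 0.05 (4.72% of all probe sets, limma, 0 called). At 48 h against 0 h, 14 were higher and 2 lower (COL11A1 and COL26A1), with a median of 0.23, where 47.8% of all probe sets were higher. At an unadjusted p under 0.05, 2 chains were higher (COL6A2 and COL27A1), against 11% of all probe sets in either direction, and 0 were called (limma). At 48 h against 24 h, 12 were higher and 4 lower, with a median of 0.18, and 0 chains had an unadjusted p under 0.05, against 9.65% of all probe sets (limma, 0 called).

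COL6A2 in resistant skin read 6.22, 5.26, 5.98, 5.84 and 6.64 at 0 h and 5.99, 7.13, 6.56, 6.90 and 7.78 at 48 h. The times overlapped, and the difference was 0.88 ± 0.35 (SE, adjusted p = 0.359, limma). This probe set was at or above the array median in only 3 of the 30 arrays. COL27A1 had a mean of 8.86 ± 0.36 (SD, n = 5) at 0 h, 9.19 ± 0.40 (n = 6) at 24 h and 9.36 ± 0.30 (n = 5) at 48 h, and the difference of 48 h from 0 h was 0.50 ± 0.22 (SE, adjusted p = 0.413, limma). With the animal number as a fixed replicate block and without resistant 0 h arrays 03, 04 and 05, the COL27A1 difference was 1.03 (adjusted p = 0.0974, limma). That fit keeps only the arrays of animals 01 and 02 in resistant skin at 0 h. COL5A3 stood 0.63 ± 0.36 (SE) higher at 48 h than at 0 h, 0.34 without resistant animal 05 at 0 h and 0.25 under that replicate block. Between 24 h and 48 h the smallest p values belonged to COL6A1 (0.64 ± 0.32 SE, adjusted p = 0.524, limma), COL12A1 (0.50 ± 0.31) and COL5A3 (0.54 ± 0.35). COL12A1 was at 0.31 without resistant animal 01 at 48 h and at 0.81 without resistant animal 05. The type I and III chains differed by 0.30 ± 0.61 (COL1A1), 0.20 ± 0.36 (COL1A2) and 0.08 ± 0.35 (COL3A1) from 0 h to 48 h.

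Markers of other cell types and of RNA integrity also differed between these resistant groups. Macrophage markers ran from 8.33 to 9.30 at 0 h and from 9.53 to 10.41 at 48 h, with no overlap. Endothelial markers averaged 9.43 ± 0.25 at 0 h and 9.94 ± 0.20 at 48 h, and smooth muscle markers 10.69 ± 0.31 and 11.53 ± 0.73 (SD, n = 5 each). Fibroblast markers averaged 11.19 ± 0.10 and 11.40 ± 0.20, and the actin difference between 3' and 5' probe sets was 2.70 ± 0.54 and 3.84 ± 1.54 (SD, n = 5 each). Their part in the collagen values was not tested.

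In susceptible skin most collagen chains read lower after infestation than before it. At 24 h against 0 h, 14 of the 16 chains were lower and 2 higher, with a median of -0.44 against -0.01 over all probe sets. Animals 09, 10 and 11 were sampled at both times, and with the animal number as a fixed replicate block the median was -0.11. Only COL13A1 had an unadjusted p under 0.05, where 2.3% of all probe sets did, and 0 were called (limma). At 48 h against 0 h, 13 were lower and 3 higher, with a median of -0.25, and 0 had an unadjusted p under 0.05, against 0.949% of all probe sets (limma, 0 called). At 48 h against 24 h, 12 were higher and 4 lower, with a median of 0.14. There COL27A1 alone had an unadjusted p under 0.05 (0.45 ± 0.21 SE), against 1.88% of all probe sets (limma, 0 called). The 0 h arrays come from 3 of the 7 susceptible animals, so part of each contrast lies between animals.

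COL13A1, a membrane-spanning chain found at cell contacts, read 7.36, 7.81 and 7.78 in susceptible skin at 0 h. At 24 h its lowest, median and highest values were 6.48, 6.82 and 7.41, and at 48 h it read 7.58, 6.41, 7.40, 7.71 and 6.23. At 24 h 1 of the 6 arrays, that of animal 09, lay above the lowest 0 h array. The differences were -0.78 ± 0.37 (SE) at 24 h and -0.58 ± 0.39 at 48 h, both with an adjusted p of 1.0 (limma). Without animal 13 at 48 h the later one was -0.38. COL1A1 stood at -0.76 ± 0.68 and -0.92 ± 0.70 at the same times, and COL1A2 at -0.56 ± 0.40 and -0.52 ± 0.41. Without animal 10 at 48 h the COL1A1 value was -0.40 and the COL1A2 value -0.19, and without animal 09 at 0 h the COL1A1 value was -0.55. Without animal 12 at 24 h the median over the 16 chains was -0.26.

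**Figure D5:**
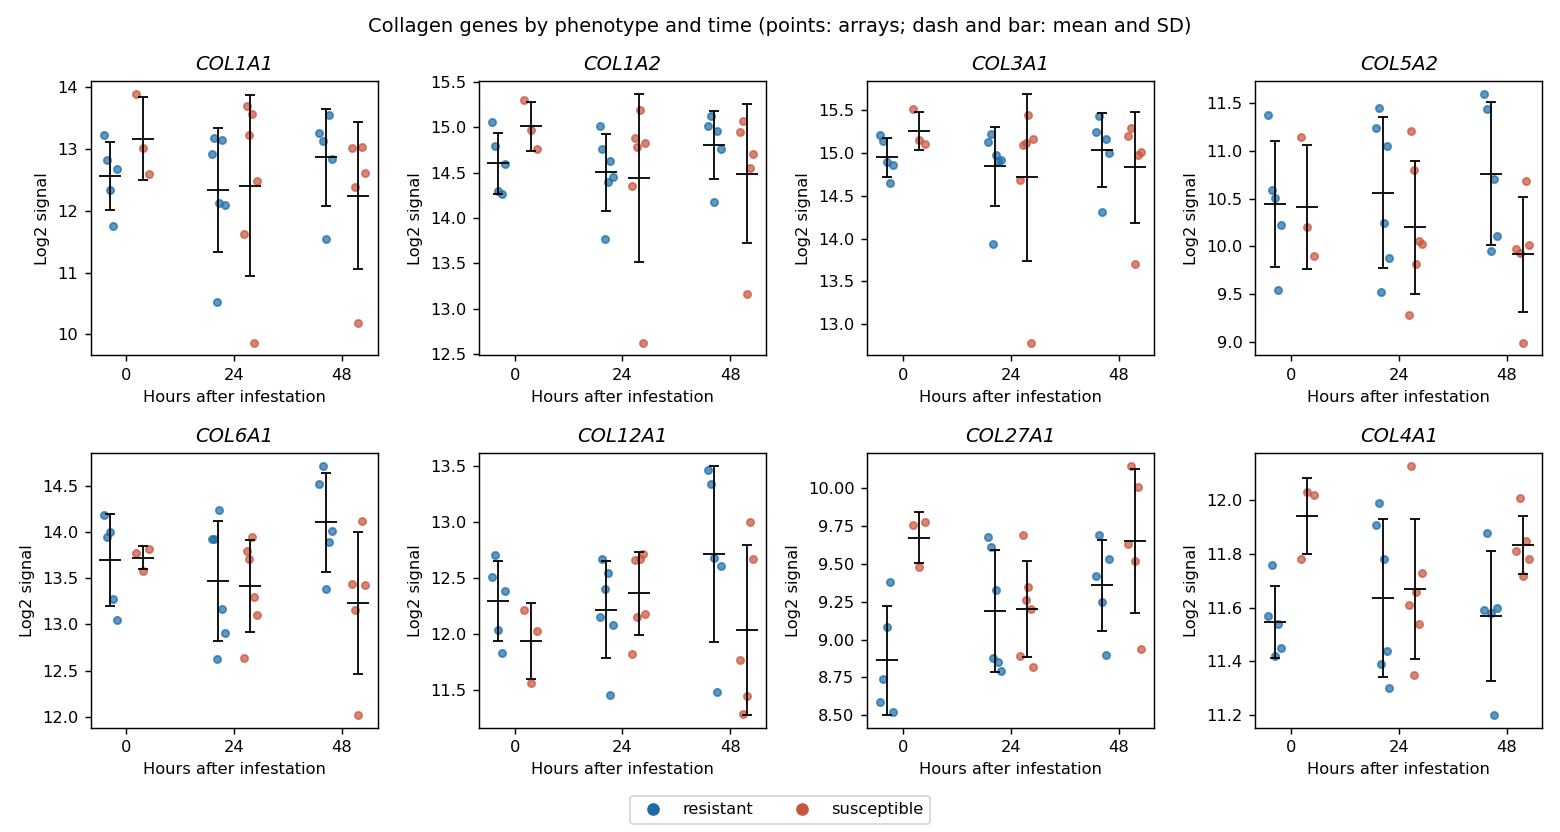
Log2 signal of 8 collagen genes by time after infestation, with 1 point per array, blue for resistant and red for susceptible skin; the dash and bar give the mean and SD of 3 to 6 arrays. The lowest COL1A1, COL1A2 and COL3A1 points are single susceptible arrays at 24 h and 48 h, and COL27A1 and COL4A1 do not overlap between phenotypes at 0 h.

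The difference between the phenotypes in their response was taken as an interaction in the same fit. For the 48 h response 14 of the 16 chains had a higher value in resistant skin, with a median of 0.51, where 46.7% of all probe sets did and their median was -0.02. Only COL6A2 had an unadjusted p under 0.05 (1.25 ± 0.53 SE, adjusted p = 1.0), against 2.93% of all probe sets, and 0 were called (limma). The COL6A2 probe set was at or above the array median in only 3 of the 30 arrays. Next after COL6A2 were COL6A1 (0.90 ± 0.51 SE) and COL13A1 (0.84 ± 0.51), and COL1A1 stood at 1.22 ± 0.93. Without susceptible animal 10 at 48 h, COL1A1 was at 0.70 and the median over the chains at 0.41.

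For the 24 h response 13 chains had a higher value in resistant skin, with a median of 0.46, where 52.3% of all probe sets did. COL27A1 (0.80 ± 0.33 SE) and COL6A2 (1.08 ± 0.51) had an unadjusted p under 0.05, against 1.85% of all probe sets, and both had an adjusted p of 1.0 (limma, 0 called). COL18A1 followed at 0.81 ± 0.41 (SE), and at 0.46 without susceptible animal 11 at 0 h. The low signal of COL6A2 limits its value here too. With the animal number as a fixed replicate block the median was 0.10, and without susceptible animal 12 at 24 h it was 0.28. These responses share the 0 h arrays with the comparison of phenotypes at 0 h, where most chains read lower in resistant skin, so the 3 are not independent of each other.

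Probe sets of the same gene differed in how closely they followed each other. Of the 16 members, 8 had a second probe set above the filter. It gave the same sign as the member in 11 of 11 comparisons for COL1A2 (r = 0.95 over 30 arrays) and COL3A1 (r = 0.97), in 10 for COL12A1 (r = 0.85) and in 9 for COL1A1 (r = 0.83). It gave the same sign in 9 for COL15A1 (r = 0.57), 8 for COL6A1 (r = 0.58), 7 for COL4A1 (r = 0.54) and 6 for COL11A1 (r = 0.46). At 0 h the COL6A1 probe sets gave -0.03 and -0.82 for resistant against susceptible skin. The type I and III chains were thus read much alike by separate probe sets, and COL4A1, COL6A1, COL11A1 and COL15A1 less so. The second COL1A1 probe set had a mean of 6.8, below the lowest array median of 7.17.

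Genes that make, bind, take up or degrade collagen were counted in 6 lists, chosen with earlier results of these data known, of which 52 of 84 genes passed the filter. None of the 52 was called in any of the 11 comparisons in the fit without an animal block (limma). Susceptible animal 10 at 48 h, the array with the lowest fibroblast and macrophage markers, lay below all other arrays of its group in 11 of 17 genes of making and folding. The same held in 10 of 15 fibril-binding genes and 4 of 5 genes of cleavage and cross-linking, so counts at 48 h are given with and without it. How many of all probe sets were lowest in that array was not counted. At 48 h, resistant against susceptible, 13 of 17 genes of collagen making and folding were higher, with a median of 0.23, and 5 were higher and 1 lower at an unadjusted p under 0.05, where 10.1% of all probe sets passed and 42.9% were higher. With susceptible animal 10 left out, 12 of 17 were higher, with a median of 0.10, and 5 had an unadjusted p under 0.05. P3H1, a prolyl 3-hydroxylase of the procollagen chains, stood at 9.83 ± 0.30 against 9.12 ± 0.29 (SD, n = 5 each), a difference of 0.70 ± 0.19 (SE, adjusted p = 0.192, limma). PPIB, the cyclophilin that works in the same complex, differed by 0.35 ± 0.10 (SE, adjusted p = 0.192, limma).

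Of the genes of propeptide cleavage and cross-linking, 4 of 5 were higher in resistant skin at 48 h, with a median of 0.52. PCOLCE, which speeds the removal of the procollagen C-terminal propeptide, differed by 0.64 ± 0.31 (SE), and LOX, the lysyl oxidase, by 1.03 ± 0.53. With susceptible animal 10 left out the values were 0.31 and 0.53, and 3 of the 5 genes were higher, with a median of 0.22. Of the 15 fibril-binding genes 15 were higher, with a median of 0.52, and 4 had an unadjusted p under 0.05, against 10.1% of all probe sets. Without that array 13 were higher, with a median of 0.25, and 2 had an unadjusted p under 0.05. FMOD, a small proteoglycan of the fibril surface, stood at 12.01 ± 0.59 against 10.95 ± 0.71 (SD, n = 5 each), a difference of 1.06 ± 0.32 (SE, adjusted p = 0.244, limma). FN1, the fibronectin on which collagen is laid down, differed by 1.31 ± 0.44 (SE, adjusted p = 0.304, limma).

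Of the 4 collagen-degrading genes measured, 4 were higher in resistant skin at 48 h, with a median of 0.50. MMP2, a gelatinase, differed by 0.64 ± 0.30 (SE) and CTSK, a lysosomal collagenase, by 0.61 ± 0.37. These were 0.32 and 0.23 without susceptible animal 10, and the median of the 4 was 0.20. Of 3 receptor and uptake genes 2 were higher, with MRC2, a collagen uptake receptor, at 0.27 ± 0.22 and ITGB1, the shared integrin beta chain, at 0.06 ± 0.11. MRC2 was at 0.08 without that array, where 3 of the 3 were higher. Of 8 genes of the TGF-beta pathway, a main inducer of collagen genes, 6 were higher, with a median of 0.15. TGFBI, a target of the pathway, stood at 0.79 ± 0.31 and LTBP1, which binds the latent form, at 0.82 ± 0.40. TGFBI was at 0.47 without susceptible animal 10, where 5 of the 8 genes were higher. LTBP1 was at 0.52 without susceptible animal 09. Macrophages also express several of these genes, CTSK and TGFBI among them, and the macrophage markers that differed at 48 h are given above. Their part in these differences was not tested.

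In resistant skin from 0 h to 48 h, 11 of the 17 genes of making and folding were higher (median 0.13), as were 12 of 15 fibril-binding genes (0.12), 4 of 5 of cleavage and cross-linking (0.27) and 4 of 4 degrading genes (0.41). Of the receptor genes 1 of 3 was higher and of the TGF-beta genes 4 of 8. MMP14, a membrane-bound collagenase, stood at 7.40 ± 0.54 (SD, n = 5) at 48 h and 5.59 ± 2.03 (SD, n = 5) at 0 h, a difference of 1.80 ± 0.62 (SE, adjusted p = 0.321, limma). With the animal number as a fixed replicate block and without resistant 0 h arrays 03, 04 and 05 it was 3.73 and was called (adjusted p = 0.0346, limma). That fit keeps only the arrays of animals 01 and 02 in resistant skin at 0 h. MMP14 was not called under that block with all arrays. Its 0 h mean lies below every array median (7.17 to 7.40), and leaving out each array gave differences of 1.23 to 2.37. PPIB differed by 0.28 ± 0.10, TMEM38B, an ion channel of the endoplasmic reticulum, by -0.64 ± 0.24, and TGFBI by 0.66 ± 0.31. OGN, PCOLCE2, LOXL1, FAP and SMAD2 differed by 0.70 ± 0.51, 0.42 ± 0.37, -0.45 ± 0.25, 0.45 ± 0.28 and -0.22 ± 0.10.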

How the data were processed

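The deposited log2 signals were computed with MAS5, per the submitters' processing notes. Its version and the genome build are not given in the sources used here. The values were taken as they are. After removal of 112 controls from 24128 probe sets, 13809 of 24016 were at or above the array median in at least 3 of 30 arrays and were kept. Symbols came from the platform annotation (13292 probe sets with 1 symbol, 86 with several, 10638 with none), and the symbols of all 22 members were found in RefSeq (ARS-UCD2.0), used for names and neighbours only.

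A model of 6 group means over all 30 arrays was fitted with limma 3.58.1 in R 4.3.3 (lmFit, eBayes with an intensity trend). Tests were two-sided, adjusted by Benjamini and Hochberg over the kept probe sets, threshold 0.05. The fit was tested on simulated data. Correlations across animals used 100000 resamples or exact permutation (scipy 1.17.1, two-sided). Python 3.11.15 and matplotlib 3.10.9 made the plots.

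The members and lists were chosen with earlier results of these data known. Chains described are the textbook skin chains and the 3 smallest p values of each comparison, with 2 genes per list; those of other results are named after their values were seen. The alternatives were quantile normalization, median centring, an offset of 16, no filter, all kept probe sets of a gene, only the groups compared, no trend, array weights, animal blocks and each array left out. The list counts without susceptible animal 10 at 48 h were added after seeing the data. The random animal block had a correlation of 0.143.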

Additional observations from a re-analysis of the deposited data

Results flagged for a closer look

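In 5 groups of 5 or 6 arrays, the lowest or highest array of each of 16 collagen chains was checked for a large gap to its nearest neighbour, 80 checks in all, of which chance passes about 1 in 20. Of these, 6 passed, all for low values of type I and III chains. In susceptible skin at 48 h, animal 10 read 10.18 for COL1A1 (next array 12.39), 13.16 for COL1A2 (next 14.55) and 13.70 for COL3A1 (next 14.98). In susceptible skin at 24 h, animal 12 read 12.62 for COL1A2 (next 14.35) and 12.78 for COL3A1 (next 14.69). In resistant skin at 24 h, animal 03 read 13.94 for COL3A1 (next 14.91).

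Of 32 responses by animal number, COL13A1 from 0 h to 48 h stood higher in all 4 resistant animals that have both times (mean 0.58) and lower in all 3 susceptible ones (mean -0.48). That pattern holds by label only and was not tested. By the check of animal numbers, the resistant 0 h arrays labelled 04 and 05 were closest to animals 05 and 06. Matched so, COL13A1 went from 7.61 to 6.64 in animal 05, a lower value, and from 6.19 to 6.60 in animal 06. The interaction over all arrays was 0.84 ± 0.51 (SE), with an adjusted p of 1.0 (limma).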

How the results depend on the processing

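No collagen chain was called under any alternative, and 1965 of 1976 alternative values kept their direction and their side of the threshold or moved by less than the spread. Without susceptible animal 10, the 48 h differences between phenotypes were -0.02 for COL1A2 and -0.09 for COL3A1; leaving out each array gave -0.02 to 0.47 and -0.09 to 0.38. ITGB1 was at -0.02 with quantile normalization. COL6A1 with COL6A2 gave r = 0.24 with the mean over kept probe sets, and from -0.39 to 0.06 when each animal was left out (0.06 without animal 08). COL3A1 with COL5A2 ranged from 0.26 to 0.65 (0.65 without animal 12).

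With the animal number as a fixed replicate block, the median at 24 h against 0 h in susceptible skin was -0.11, and the median difference of the 24 h response was 0.10. Without resistant 0 h arrays 03, 04 and 05 in that replicate block, which leaves animals 01 and 02 there, they were -0.11 and 0.15. In the same fit MMP14 at 48 h against 0 h in resistant skin was 3.73 (adjusted p = 0.0346, limma). The cause was not tested. No fixed block was possible between phenotypes, since each animal has 1 phenotype. The random replicate block called 0 chains. The number of arrays and the low signal of COL6A2, COL13A1, COL5A3, COL18A1 and COL26A1 limit all values.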
